A study of Mus musculus with 24 samples.

Results

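The effects of losing ZBTB16 and of losing SOX3 on the transcriptome of undifferentiated spermatogonia (uSPG) were compared gene by gene. The study sorted mouse testis cells at postnatal day 7 with antibodies to THY1, which enriches for uSPG, or to KIT, which enriches for differentiating spermatogonia (dSPG), and sequenced their RNA. Of its 24 RNA-seq libraries, 12 were used for the comparison, in 4 groups of 3: Zbtb16 WT THY1+, Zbtb16 null THY1+, Sox3 cKO THY1+, and the WT libraries of the Sox3 set that are labelled KIT+. The Zbtb16 null carried the luxoid mutation (lu/lu) in every cell of the animal, with WT littermates. The Sox3 cKO carried a floxed Sox3 allele removed by Ddx4-Cre, which acts in germ cells, and its WT animals were littermates. All were on a C57BL/6J background, and the testes of 3 mice were pooled for each isolation. Each effect was the mutant less the WT within its own set, on log2(FPKM + 0.1), and 21037 of the 21532 genes listed in both sets passed the filter on low values in each (22374 genes were tested in the Zbtb16 set and 21212 in the Sox3 set).

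The WT libraries of the Sox3 set were chosen by their sorting markers, which went against their labels, so the values of these markers are a description and were not tested. In the 3 WT libraries labelled KIT+, Thy1 measured 3.84, 3.59 and 4.06 FPKM, whereas Kit measured 12.97, 14.0 and 18.8 FPKM. In those labelled THY1+, Thy1 measured 0.253, 0.254 and 0.213 FPKM, whereas Kit measured 48.2, 45.6 and 80.1 FPKM. The libraries labelled KIT+ thus lay at the level of the other THY1+ libraries, where Thy1 ran from 3.29 to 5.26 FPKM and Kit from 13.8 to 21.1 FPKM, and the groups are named here by their labels throughout (KIT+-labelled WT, THY1+-labelled WT). The depth, read from the smallest steps of the FPKM values, ran from 27.5 to 31.3 M reads per library in the Zbtb16 set. In the Sox3 set it was 29.5 and 30.6 M for the libraries numbered 1 and 10.99 to 14.9 M for the 4 numbered 2 and 3, so low genes were measured less precisely there.

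ZBTB16 (PLZF) is a zinc finger transcription factor that spermatogonial stem cells need for their maintenance, and the study describes it as both activator and repressor. SOX3 is an HMG-box transcription factor encoded on the X chromosome, made in the progenitors that leave the stem cell state and needed for them to proceed towards differentiation. The HMG box of SOX proteins binds short sites of the kind AACAAT or ACAAAG. The comparison asked which genes responded to both losses, which moved in opposite directions and which responded to one alone.

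Each target was first checked in its own mutant and then in the other. Sox3 mRNA was at 8.63, 9.53 and 11.7 FPKM in the KIT+-labelled WT and at 0, 0 and 0.0434 FPKM in the cKO, the last value equal to 1 read. In the Zbtb16 set Sox3 was at 7.70, 5.85 and 3.14 FPKM in the WT and at 9.77, 11.5 and 5.10 FPKM in the null. The groups overlapped, and the log2 change of 0.66 ± 0.44 (SE) had an adjusted p of 0.38, or 0.048 with the replicate number as a block. Zbtb16 mRNA was at 55.7, 58.7 and 42.0 FPKM in the WT and at 17.5, 18.2 and 15.6 FPKM in the null, where it fell by 1.59 ± 0.17 on the log2 scale with an adjusted p of 0.00068. In the Sox3 set Zbtb16 was at 37.8, 45.9 and 67.8 FPKM in the KIT+-labelled WT and at 40.2, 51.0 and 48.7 FPKM in the cKO. That difference was -0.08 ± 0.29 on the log2 scale (adjusted p = 0.93), so no change of Zbtb16 without SOX3 was detectable.

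A gene was called changed at an adjusted p of at most 0.05 and at least 1.5-fold. The loss of ZBTB16 gave 890 calls among 22374 genes (3.98%), 607 of them higher in the null (2.71%) and 283 lower (1.26%). The loss of SOX3 gave 15 calls among 21212 genes (0.0707%), 14 of them lower in the cKO (0.066%) and 1 higher (0.00471%), beside 2793 genes at an unadjusted p under 0.05. The difference between both effects was tested in 1 fit over all 24 libraries and gave 1624 calls among 21037 genes (7.72%). Same-numbered libraries deviated together, and with the replicate number as a block the same counts were 1980 (8.85%), 29 (0.137%) and 3703 (17.6%). The Sox3 calls closest to the threshold were Igfbp2 and Ly6g6e, both at an adjusted p of 0.040, and the closest genes outside it were Narfl at 0.055 and Xlr5c at 0.061.

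**Figure D1:**
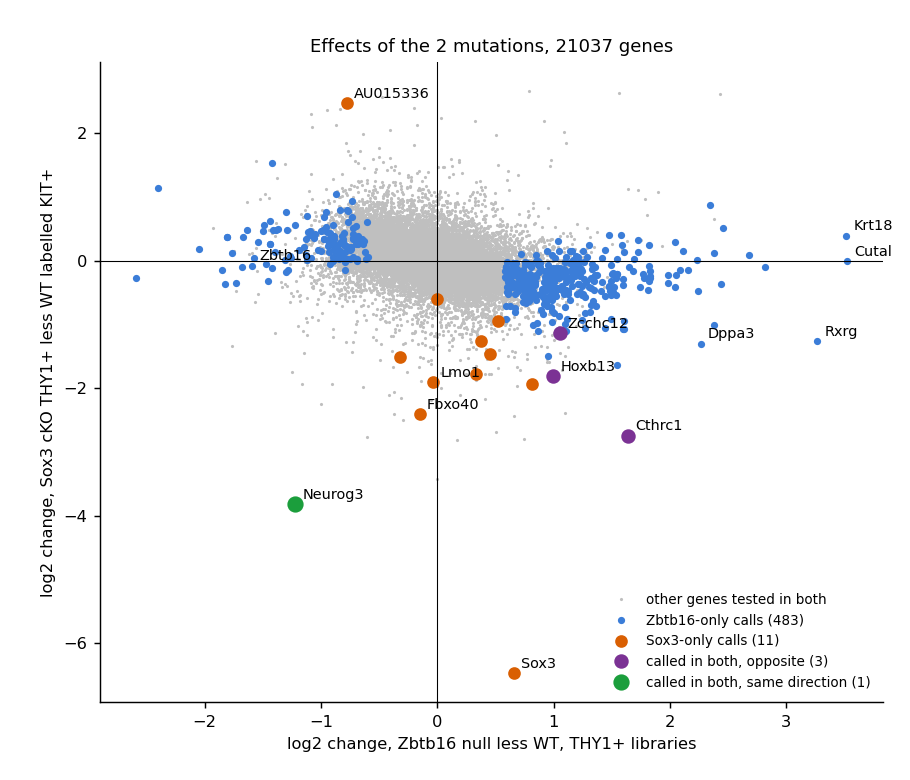
Log2 change in the Zbtb16 null (x) against log2 change in the Sox3 cKO (y) for the 21037 genes tested in both, each point 1 gene and colours marking the classes of calls. Neurog3 is the single gene called lower in both, Cthrc1, Zcchc12 and Hoxb13 lie at lower right, and the Zbtb16-only calls spread along the x axis.

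Neurog3 was the only gene called in both comparisons with the same direction. It encodes a basic helix-loop-helix transcription factor that marks progenitors primed for differentiation, and lies on chromosome 10 (62133090 to 62134763, plus strand, mm10). Its mRNA was at 7.85, 6.79 and 5.22 FPKM in the Zbtb16 WT and at 3.07, 2.64 and 2.55 FPKM in the null, with no overlap. It was at 6.10, 8.62 and 5.91 FPKM in the KIT+-labelled WT and at 0.418, 0.707 and 0.174 FPKM in the Sox3 cKO. On the log2 scale it fell by 1.22 ± 0.20 without ZBTB16 (adjusted p = 0.0074, limma) and fell by 3.82 ± 0.38 without SOX3 (adjusted p = 0.0026, limma). Both losses thus lowered it, and the test of the difference (2.60, adjusted p = 0.0020) put the fall without SOX3 beyond that without ZBTB16. The call held in each of the 6 fits without 1 Zbtb16 library and in each of the 6 without 1 Sox3 library. With only the 6 libraries of the Sox3 contrast in the fit, the adjusted p was 0.059, and with replicates 2 and 3 alone it was 0.18. As a share of each list, this 1 gene was 0.124% of the 806 Zbtb16 calls tested in both sets and 6.67% of the 15 Sox3 calls. The 15 include Sox3, the deleted gene, and of all genes tested in both sets 1.3% were called lower in the null.

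In the opposite direction, 3 genes were higher in the Zbtb16 null and lower in the Sox3 cKO, which was 0.372% of the Zbtb16 calls and 20.0% of the Sox3 calls. Of all genes tested in both sets, 2.53% were called higher in the null. Of the genes tested in the Sox3 set, 0.066% were called lower in the cKO. No gene was called lower without ZBTB16 and higher without SOX3. Cthrc1, which encodes a secreted protein with a collagen triple helix repeat, had the largest effects of the 3. It was at 2.51, 1.71 and 3.04 FPKM in the Zbtb16 WT and at 8.71, 6.97 and 7.09 FPKM in the null, a log2 rise of 1.64 ± 0.23 (adjusted p = 0.0033). It was at 2.71, 2.63 and 2.26 FPKM in the KIT+-labelled WT and at 0.229, 0.184 and 0.544 FPKM in the cKO, where it fell by 2.74 ± 0.35 (adjusted p = 0.015). The WT groups of both sets were alike in level and the mutants lay on either side of them.

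Zcchc12, an X-linked gene for a CCHC zinc finger protein (chromosome X, 36195904 to 36199158, plus strand), was at 4.59, 4.13 and 4.52 FPKM in the Zbtb16 WT and at 10.2, 7.96 and 9.87 FPKM in the null. In the Sox3 set it was at 6.11, 5.41 and 4.87 FPKM in the KIT+-labelled WT and at 2.60, 2.23 and 2.47 FPKM in the cKO. Neither pair of groups overlapped, and the log2 changes were 1.06 ± 0.15 (adjusted p = 0.0029) and -1.13 ± 0.17 (adjusted p = 0.037). Hoxb13, a posterior homeobox gene, stayed below 1.2 FPKM in every library. Its 3 Zbtb16 WT libraries lay between 0.316 and 0.318 FPKM, with 1.13, 0.593 and 0.579 FPKM in the null, and it fell from 0.577, 0.577 and 0.903 FPKM to 0.123, 0.165 and 0.0811 FPKM in the cKO. The differences between both effects were 4.38 for Cthrc1, 2.19 for Zcchc12 and 2.81 for Hoxb13 on the log2 scale, with adjusted p-values of 1.0e-05, 8.8e-06 and 6.0e-05. The Sox3 call of Hoxb13 was lost with a pseudocount of 1. The Sox3 calls of the 3 genes rested on all 6 libraries: when the Sox3 libraries were left out singly, Cthrc1 stayed called in 1 of the 6 fits, and Zcchc12 and Hoxb13 in none. The Zbtb16 call of Hoxb13 stayed in 1 of the 6 fits without 1 Zbtb16 library. With the block 7 genes were called in opposite directions, these 3 together with Six4, Gm2832, Mageb7-ps and Sox3 itself.

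**Figure D2:**
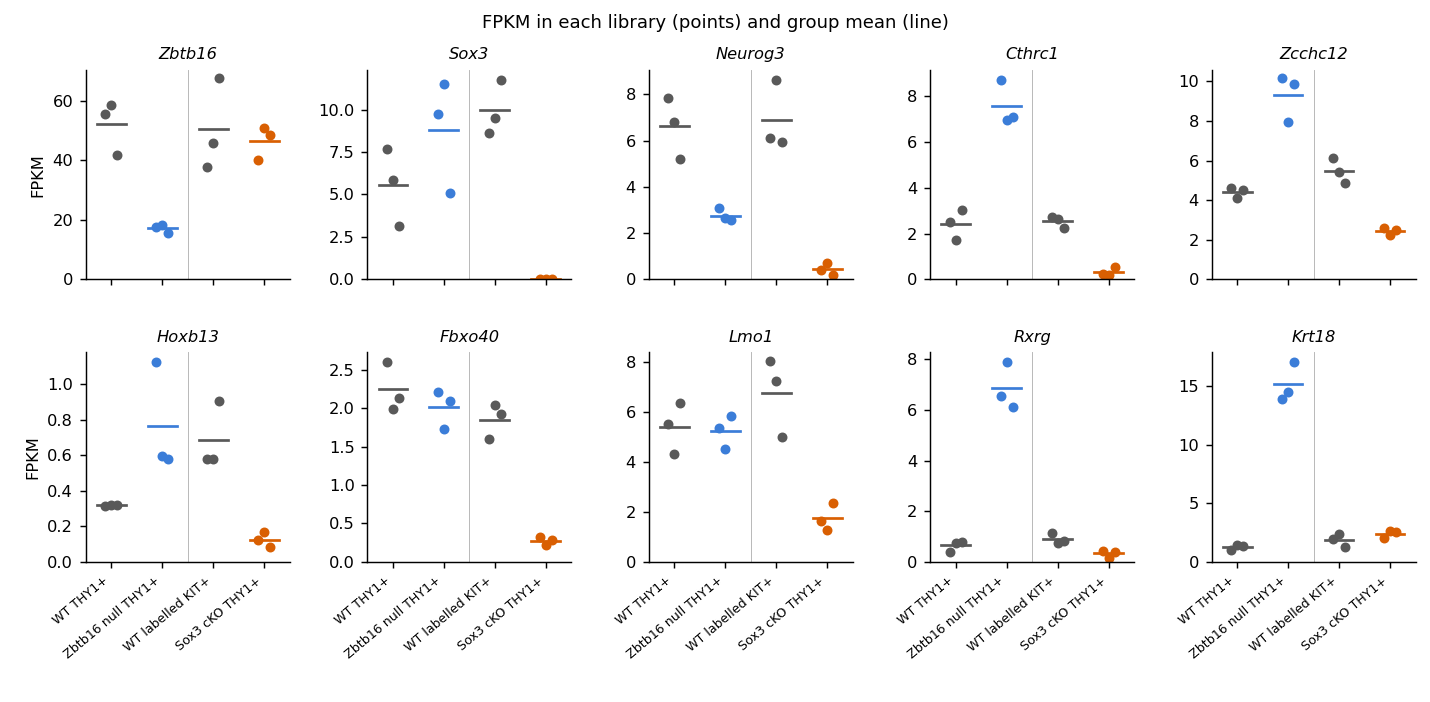
FPKM of 10 genes in each of the 12 libraries (points) with the group mean (line), for WT and null THY1+ cells of the Zbtb16 set and for the KIT+-labelled WT and cKO THY1+ of the Sox3 set. Neurog3 is lower in both mutants, Cthrc1, Zcchc12 and Hoxb13 are higher in the null and lower in the cKO, Fbxo40 and Lmo1 are lower in the cKO with both Zbtb16 groups alike, and Rxrg and Krt18 are higher in the null.

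The remaining 11 Sox3 calls were Sox3-only: they were not called in the Zbtb16 null and their effects differed between the mutants. Besides Sox3, 9 of them were lower in the cKO. Fbxo40, which encodes an F-box protein of a ubiquitin ligase known from muscle, was at 1.59, 2.04 and 1.92 FPKM in the KIT+-labelled WT and at 0.320, 0.214 and 0.275 FPKM in the cKO. It was at 2.61, 1.99 and 2.13 FPKM in the Zbtb16 WT and at 2.21, 1.72 and 2.10 FPKM in the null, which overlapped. The log2 changes were -2.40 ± 0.20 (adjusted p = 0.00090) and -0.15 ± 0.17 (adjusted p = 0.62), and the difference of 2.25 had an adjusted p of 2.6e-05. Lmo1, a LIM-only transcriptional cofactor, fell from 8.05, 7.26 and 4.98 FPKM to 1.65, 1.27 and 2.34 FPKM in the cKO, a log2 change of -1.90 ± 0.23 (adjusted p = 0.010). Its means in the Zbtb16 set were 5.4 ± 1.0 (SD, n = 3) FPKM in the WT and 5.24 ± 0.68 FPKM in the null.

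Igfbp2, which encodes a binding protein for insulin-like growth factors, had the smallest change of the 15. It was at 27.6, 30.4 and 28.1 FPKM in the KIT+-labelled WT and at 18.7, 19.2 and 19.02 FPKM in the cKO (log2 change -0.59 ± 0.09, adjusted p = 0.040). In the Zbtb16 set it averaged 23.2 FPKM in the WT and 23.1 FPKM in the null. Fbxo40, Lmo1 and Igfbp2 were the 3 Sox3-only genes whose Zbtb16 effect lay within 0.26 of 0 on the log2 scale. The only gene higher in the cKO was AU015336, annotated as a non-coding transcript inside an intron. It was at 0.0769, 0.0789 and 0.0838 FPKM in the KIT+-labelled WT, at most 2 reads each, and at 0.799, 0.962 and 0.948 FPKM in the cKO. In the Zbtb16 set it was at 0.469, 0.666 and 0.676 FPKM in the WT and at 0.376, 0.556 and 0.116 FPKM in the null. The WT groups of both sets thus differed in level, which was not tested. The other Sox3-only genes were named after their values were seen and were lower in the cKO: Gm2832 (-1.94), Mobp (-1.77), Ly6g6e (-1.5), H2-Q2 (-1.46), Gm9785 (-1.25) and Mageb8-ps (-0.95), as log2 changes. Gm2832 had at most 2 reads in each cKO library, so the size of its change depends on the pseudocount. H2-Q2, Gm9785 and Mageb8-ps have near-identical copies in the genome, and since alignments to many places were kept, reads could be shared between the copies.

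Of the 15 Sox3 calls, 4 lie on the X chromosome (26.7%), namely Sox3, Zcchc12, Gm9785 and Mageb8-ps, against 895 of all 21037 genes (4.25%). Sox3, the deleted gene, was bound to be among them. Gm9785 and Mageb8-ps have near-identical copies, as given above, so their reads could be shared. The share on the X chromosome was not tested. Among the Zbtb16 calls, 46 of 533 higher genes (8.63%) and 11 of 273 lower genes (4.03%) were X-linked. Fbxo40, Neurog3, Gm9785, AU015336 and Sox3 kept their Sox3 call in every fit that left out 1 Sox3 library, and the counts without each library ran from 5 to 9. With only the 6 libraries of the contrast in the fit, Sox3 alone was called by limma (2905 genes at an unadjusted p under 0.05), and with the replicates numbered 2 and 3 no gene was (1459 genes).

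Promoter windows of 250 bases before to 50 after the start (RefSeq, GRCm38.p6) were at hand for 8 of the 15 Sox3 calls, as 11 windows. They are shown for 1 gene of each class to set the sequence beside the response, in lower case with the letters ACAAAG, or their reverse complement CTTTGT, in capitals. The windows are chr10:62132840-62133139 (plus strand) for Neurog3, lower in both mutants, chr16:36990418-36990717 (minus strand) for the upstream start of Fbxo40, lower in the cKO alone, and chrX:36195654-36195953 (plus strand) for Zcchc12, of opposite response.
Neurog3: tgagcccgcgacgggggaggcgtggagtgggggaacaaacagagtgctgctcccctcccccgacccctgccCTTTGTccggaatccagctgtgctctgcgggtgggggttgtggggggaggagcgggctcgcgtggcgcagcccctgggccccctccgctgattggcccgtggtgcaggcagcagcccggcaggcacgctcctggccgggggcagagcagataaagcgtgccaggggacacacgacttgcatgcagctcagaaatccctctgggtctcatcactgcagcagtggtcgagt
Fbxo40: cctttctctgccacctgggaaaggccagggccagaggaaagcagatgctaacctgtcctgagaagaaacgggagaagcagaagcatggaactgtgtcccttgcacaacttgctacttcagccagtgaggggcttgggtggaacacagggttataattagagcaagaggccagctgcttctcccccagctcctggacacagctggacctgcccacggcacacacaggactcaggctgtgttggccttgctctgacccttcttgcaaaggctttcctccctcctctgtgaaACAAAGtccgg
Zcchc12: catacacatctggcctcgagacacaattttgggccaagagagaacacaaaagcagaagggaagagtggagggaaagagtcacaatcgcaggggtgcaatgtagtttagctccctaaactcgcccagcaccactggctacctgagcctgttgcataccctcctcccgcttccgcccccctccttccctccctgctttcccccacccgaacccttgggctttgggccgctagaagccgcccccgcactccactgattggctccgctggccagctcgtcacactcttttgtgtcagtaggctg

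The Neurog3 window holds 1 match, which begins 179 bases before the start on the minus strand, the Fbxo40 window holds 1 match 39 bases after the start, and the Zcchc12 window holds none. ACAAAG, read on both strands, was in 4 of the 11 windows of the Sox3 calls (36.4%), those of Neurog3, Fbxo40, Mobp and Gm2832, and in 2411 of the 16264 windows of all genes tested (14.8%). AACAAT was in 1 of the 11 (9.09%), that of Gm2832, and in 6.53% of all windows. The Gm2832 window (chr14:41264420-41264719) lies outside the annotated position of the gene (41278805 to 41288815, plus strand), so its matches are not at that start. Among the Zbtb16 calls, ACAAAG was in 19.05% of the windows of the higher genes and 17.8% of those of the lower genes. These are matches of letters in a short window and not measured binding sites.

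Genes of ZBTB16 only were far more numerous. In all, 483 genes were called in the Zbtb16 null, not called in the Sox3 cKO and called for the difference in the direction of the Zbtb16 effect, 353 of them higher and 130 lower. Their Sox3 effect was within 0.26 on the log2 scale, in either direction, for 154 of the 353 and 58 of the 130. The remaining genes moved further in the cKO without a call there, so the class does not mean no response to SOX3 loss. A further 319 Zbtb16 calls did not pass the test of the difference, so for these the data do not separate the mutants. With the block the Zbtb16-only genes were 1210, and leaving out 1 library gave 190 (without Zbtb16 null replicate 1), 206 and 210 (without WT replicate 2 or 1) or 221 (without null replicate 3), and 348 to 552 in the other 8 fits.

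Among the Zbtb16-only genes with a Sox3 effect near 0, Cutal rose most, from 0.177, 0.286 and 0.405 FPKM to 4.42, 4.06 and 4.27 FPKM, while it averaged 0.199 FPKM in the KIT+-labelled WT and 0.197 FPKM in the Sox3 cKO. Syt12, a synaptotagmin, rose from a mean of 0.539 to 4.43 FPKM, and Nsg2, which encodes a neuronal membrane protein of the endosomal pathway, from 0.215 to 1.55 FPKM. Dclk3, a doublecortin-like kinase, and Abcb1b, an efflux transporter of the P-glycoprotein family, rose by 2.15 ± 0.21 and 2.11 ± 0.15 on the log2 scale. All 5 kept their call in each fit without 1 Zbtb16 library, and their Sox3 effects lay between -0.15 and 0.15.

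Krt18, a keratin of simple epithelia that the study names for the Zbtb16 null, was at 1.02, 1.38 and 1.32 FPKM in the WT and at 13.9, 14.5 and 17.1 FPKM in the null (log2 change 3.51 ± 0.15, adjusted p = 1.0e-06). In the Sox3 set it was at 1.91, 2.39 and 1.22 FPKM in the KIT+-labelled WT and at 2.01, 2.66 and 2.49 FPKM in the cKO, where the groups overlapped (0.40 ± 0.38, adjusted p = 0.66). Of the lower genes with a Sox3 effect near 0, Tox3, an HMG-box protein, fell by 1.85 ± 0.22, the zinc finger gene Zscan5b by 1.68 ± 0.21, Zbtb16 itself by 1.59 ± 0.17 and the chemokine gene Ccl24 by 1.58 ± 0.30 on the log2 scale. Trdv4, a variable segment of the T cell receptor delta chain, fell by 1.76 ± 0.37, from 2.02, 0.868 and 1.66 FPKM to 0.514, 0.421 and 0.190 FPKM. T cell and macrophage markers were lower in the null libraries, as given below, and their part in the lower calls was not tested.

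Over all 21037 genes the effects ran against each other. Pearson's r across genes was -0.349 and Spearman's rho -0.441, and over the 16172 genes at 1 FPKM or more they were -0.410 and -0.515. Genes are not independent replicates, and these values describe the libraries only. Opposite signs were found in 14322 genes (68.1%), where 7662 were lower in the null and higher in the cKO and 6660 the other way round. Leaving out any 1 of the 12 libraries kept r between -0.392 and -0.268, the latter without Sox3 cKO replicate 2. In the libraries with KIT+ markers r was 0.541 instead, and with the effects averaged over both fractions it was -0.036.

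In the libraries with THY1+ markers the Sox3 effects of the Zbtb16 calls showed the same opposite tilt at small sizes. Among the genes tested in both sets, 806 were Zbtb16 calls (3.83%), 533 of them higher (2.53%) and 273 lower (1.3%). Of the 533 genes called higher in the null, 382 (71.7%) had a value below 0 in the cKO, with a median log2 change of -0.17, against 49.1% and a median of 0.01 over all genes. At an unadjusted p under 0.05, 88 of the 533 (16.5%) were lower in the cKO and 8 (1.5%) higher, where all genes gave 8.63% and 4.58%. Of the 273 genes called lower in the null, 161 (59.0%) had a value above 0 in the cKO, with a median of 0.06, and 17 (6.23%) were higher and 10 (3.66%) lower at that level. Most of these shifts were small: 87.99% of the higher genes and 88.6% of the lower genes changed by less than 1.5-fold in the cKO, as did 90.9% of all genes.

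**Figure D3:**
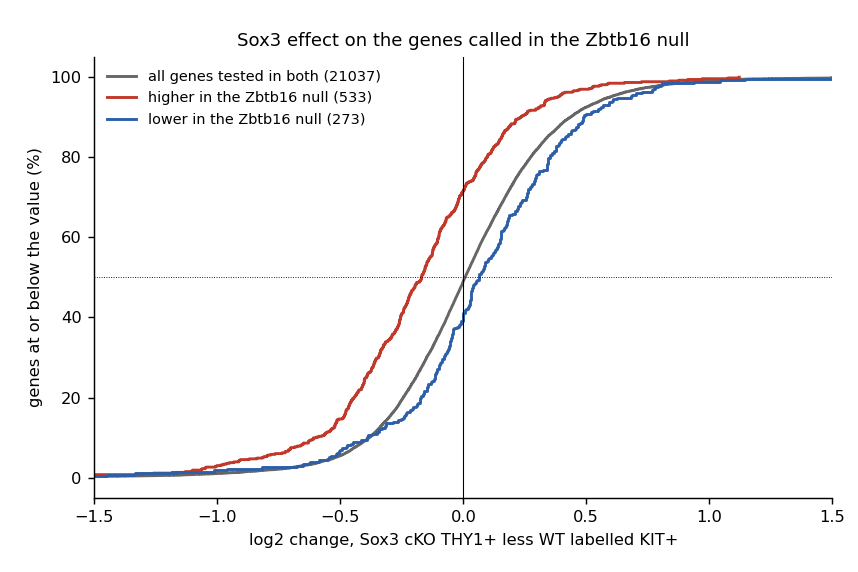
Cumulative share of genes (y, percent) by their log2 change in the Sox3 cKO (x, shown from -1.5 to 1.5), for all 21037 genes, the 533 called higher and the 273 called lower in the Zbtb16 null. The curve of the higher genes lies to the left of all genes, with a median of -0.17, and that of the lower genes to the right over most of its range, with a median of 0.06.

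By gene list, most progenitor genes had values below 0 in the Sox3 cKO. The list holds the deleted gene, and the study names Neurog3 and Lin28a from these samples, so their direction is not independent evidence. Besides Sox3, 10 of the other 12 progenitor genes had a value below 0 without SOX3, with a median log2 change of -0.41. Of the 12, Neurog3 alone was called lower, where 0.066% of all genes were, and with the block 3 were called lower besides Sox3 (0.132% of all genes). Lin28a, which encodes an RNA-binding protein that blocks let-7 maturation, was at 47.2, 55.7 and 61.3 FPKM in the KIT+-labelled WT and at 24.5, 28.8 and 26.8 FPKM in the cKO, with no overlap. Its change of -1.03 ± 0.18 had an adjusted p of 0.085, or 0.031 with the block. Foxf1, a forkhead factor, was at 19.3, 24.3 and 21.5 FPKM against 10.1, 9.66 and 9.40 FPKM (adjusted p = 0.063, or 0.046 with the block). In the Zbtb16 null the median of the list was -0.15, Neurog3 and Sall1 were called lower and Dppa3 higher, against 1.3% and 2.53% of all genes tested in both sets.

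Of 24 stem cell and self-renewal factors, 5 were called lower in the null, the mutated gene among them, where 1.3% of all genes were, and none was called higher or in the cKO. The study names T, Eomes, Fgfr1 and Lhx1 for the null from these samples, so their direction is not independent evidence. With the block 7 were called lower, where 4.49% of all genes were. The 5 were Zbtb16, the T-box genes T (log2 change -1.25) and Eomes (-1.15), Shisa6 (-1.19), a marker of stem-like spermatogonia, and, named after its value was seen, the paired box gene Pax7 (-0.96). Eomes was at 1.96, 1.48 and 1.21 FPKM in the WT and at 0.598, 0.725 and 0.576 FPKM in the null, and at 1.67 and 1.97 FPKM on average in the KIT+-labelled WT and the cKO. The difference between the mutants was called for Eomes (adjusted p = 0.0093) and Shisa6 (adjusted p = 0.022) and not for T (adjusted p = 0.12). The members went both ways, with 14 below and 10 above 0 in the null and 11 below and 13 above 0 in the cKO, and the medians were -0.03 and 0.09. Ccnd1, which encodes cyclin D1 and which the study names for the null, was the only one of 16 cyclin and CDK inhibitor genes called. It was at 24.3, 28.1 and 22.7 FPKM in the WT and 12.8, 14.7 and 12.7 FPKM in the null. Its Sox3 effect was 0.00 ± 0.20, and the difference of -0.90 had an adjusted p of 0.036. That difference stayed a call in 4 of the 12 fits without 1 library, and the Zbtb16 call of Ccnd1 stayed in 6 of 6.

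Pluripotency-linked genes, meiotic genes and the X-linked Rhox homeobox genes had medians above 0 in the null and below 0 in the cKO. Their median log2 changes were 0.52 and -0.11 over 17 genes, 0.34 and -0.26 over 22 genes, and 0.51 and -0.43 over 9 genes. Not all members followed the median. Of the pluripotency-linked genes, 14 were above 0 in the null and 12 below 0 in the cKO, with Klf4 and Myc the other way round in both, and of the Rhox genes 7 and 8. The null gave 4, 1 and 2 calls in these lists, all higher, where 2.53% of all genes were called higher, so the single meiotic call lies near the share of all genes. With the block these counts were 8, 6 and 2, where 4.36% of all genes were called higher. In the cKO none was called, or 1 pluripotency-linked gene lower with the block. The study names Pou5f1, Utf1, Nr5a2, Sycp3, Tdrd5 and Rhox10 for the null from these samples, so their direction is not independent evidence. Utf1, Nr5a2, Tdrd5 and Rhox10 are among the calls counted here. Dppa3, a maternal factor also made in early germ cells, rose from 0.372, 0.187 and 0.286 FPKM to 2.75, 1.14 and 1.54 FPKM in the null. It was at 0.329, 0.451 and 0.479 FPKM in the KIT+-labelled WT and at 0, 0.204 and 0.200 FPKM in the cKO, where 2 reads was the most in any library, and the difference of 3.57 had an adjusted p of 0.00085. Of the other members called, Utf1 rose by 1.24 ± 0.28, the nuclear receptor Nr5a2 by 1.11 ± 0.15 and Dppa4 by 1.14 ± 0.15 on the log2 scale. The call of Utf1 was lost in each fit without 1 Zbtb16 library.

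Of the 22 meiotic genes, 20 were above 0 in the null and 19 below 0 in the cKO. Tdrd5, a Tudor domain protein of the piRNA pathway, was called, at 17.9, 18.6 and 16.7 FPKM in the WT and 36.9, 34.7 and 30.1 FPKM in the null, with 17.9 and 15.9 FPKM on average in the Sox3 set. Sycp3, of the synaptonemal complex, was at 73.2, 59.9 and 83.7 FPKM in the WT and 127, 88.2 and 124 FPKM in the null (adjusted p = 0.16, or 0.0083 with the block). It was at 119, 96.5 and 100.8 FPKM in the KIT+-labelled WT and 70.5, 77.9 and 73.9 FPKM in the cKO (adjusted p = 0.28). Neither effect of Sycp3 was a call, and their difference of 1.14 was one (adjusted p = 0.030). Rhox10, an X-linked homeobox gene of spermatogonia, rose in the null from 18.7, 12 and 21.9 FPKM to 47.9, 33.9 and 47.8 FPKM, and was at 25.1, 21.8 and 19.8 FPKM against 14.5, 17.8 and 16.9 FPKM in the Sox3 set. The difference of 1.76 had an adjusted p of 0.0022.

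Genes of the retinoid pathway differed among themselves. Rxrg, which encodes a retinoid X receptor, rose from 0.390, 0.753 and 0.792 FPKM to 6.57, 7.89 and 6.12 FPKM in the null, and was at 1.12, 0.730 and 0.805 FPKM in the KIT+-labelled WT and at 0.428, 0.158 and 0.389 FPKM in the cKO. Its log2 changes were 3.26 ± 0.24 (adjusted p = 4.8e-05) and -1.26 ± 0.40 (adjusted p = 0.28), and the difference of 4.53 had an adjusted p of 2.4e-05. Aldh1a2, which makes retinoic acid, was also called higher in the null, by 0.74 ± 0.11 on the log2 scale. Cyp26c1, which degrades retinoic acid, was called lower (-1.21 ± 0.24), as was Aldh1a1 (-0.73), which was named after its value was seen. Cyp26b1, which degrades retinoic acid and is known from somatic cells of the testis, was at 7.20, 9.30 and 9.63 FPKM in the KIT+-labelled WT and at 13.9, 38 and 13.8 FPKM in the cKO. The groups did not overlap, cKO replicate 2 stood far above the others, and the change of 1.16 ± 0.39 had an adjusted p of 0.29.

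The cell migration and extracellular matrix list had a median of -0.61 in the null and 0.54 in the cKO over 30 genes. Of these, 26 were below 0 in the null and above 0 in the cKO. Zeb2 alone was called lower in the null, where 1.3% of all genes were, or 5 genes with the block (4.49% of all genes), and none was called higher in the cKO in either fit. Col15a1, a collagen that the study names, was at 3.62, 5.74 and 5.79 FPKM in the KIT+-labelled WT and at 7.98, 25.1 and 8.49 FPKM in the cKO (1.26 ± 0.41, adjusted p = 0.28). Cthrc1 was the single gene of the list with the reverse pattern, called higher in the null and lower in the cKO. Without cKO replicate 2 the median in the cKO was 0.34.

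Most markers of other testis cells were also below 0 in the null, namely all 12 Sertoli, 8 Leydig and 12 macrophage genes, 11 of 12 peritubular, 6 of 8 endothelial and 6 of 9 T cell genes. Pecam1 (0.66) and Vwf (0.90) of the endothelial list and Cd2 (0.46), Trac (0.41) and Lck (0.16) of the T cell list were above 0, as log2 changes that were not called. The median log2 change in the null was -0.61 for 12 Sertoli cell genes, -0.73 for 8 Leydig cell genes, -0.59 for 12 peritubular and stromal genes, -0.50 for 8 endothelial genes, -0.75 for 12 macrophage genes and -0.57 for 9 T cell genes. In the cKO the medians were 0.28, 0.36, 0.23, 0.13, -0.01 and -0.01. The medians in the cKO moved with single libraries. Without cKO replicate 2 the Sertoli median was -0.03 and the peritubular median 0.09, without WT labelled KIT+ replicate 3 they were 0.12 and -0.08, and without WT labelled KIT+ replicate 1 the Leydig median was 0.12 and the endothelial median 0.03. In the null 1 macrophage gene and 1 T cell gene were called lower in these lists, and with the block 5 Sertoli, 5 Leydig, 2 peritubular, 1 endothelial, 4 macrophage and 3 T cell genes were, where 4.49% of all genes were. Germ cell identity genes had medians of 0.27 and -0.17 over 16 genes.

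The summed FPKM of the macrophage list was 912 to 1059 in the Zbtb16 WT, 425 to 816 in the null, 1097 to 1403 in the KIT+-labelled WT and 1142 to 1279 in the cKO. For the Leydig list it was 93.5 to 134, 58.7 to 89.7, 76.1 to 122 and 92.9 to 124, for the Sertoli list 47.2 to 82.4, 30.6 to 44.0, 48.9 to 78.7 and 51.9 to 107, and for the peritubular and stromal list 492 to 711, 308 to 487, 314 to 569 and 419 to 933. The endothelial list summed to 17.2 to 25.4, 13.7 to 21.3, 14.9 to 17.7 and 21.6 to 35.3, and the T cell list to 15.03 to 16.5, 11.5 to 12.7, 18.96 to 26.1 and 19.3 to 23.4. The null lay below its WT in the macrophage, Leydig, Sertoli, peritubular and T cell sums with no overlap of the libraries, and the cKO overlapped its WT in all but the endothelial sum. No marker of these lists was at 0 in all libraries of a group. In sorted bulk cells a change in the share of a cell type and a change of RNA per cell cannot be told apart, and the part of these markers in the tilt between the effects was not tested.

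**Figure D4:**
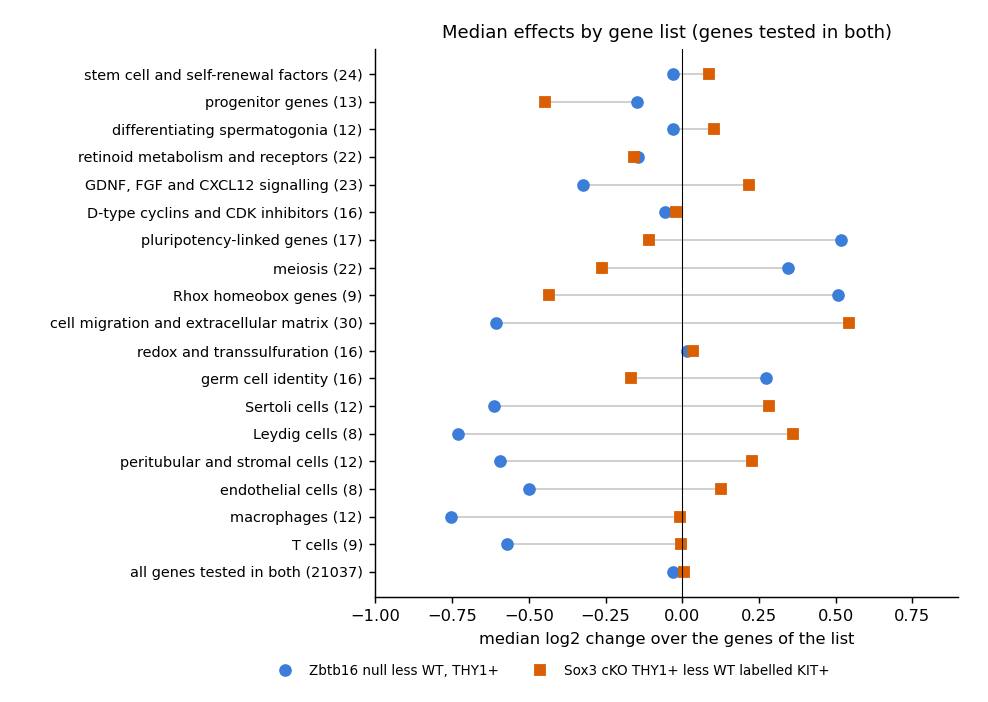
Median log2 change over the genes of each list (number of genes in brackets) in the Zbtb16 null (circles) and in the Sox3 cKO (squares), with all genes in the bottom row. The extracellular matrix list sits at -0.61 and 0.54, the Rhox list at 0.51 and -0.43, and the Sertoli, Leydig, peritubular and endothelial markers below 0 in the null and above 0 in the cKO.

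The 12 libraries with KIT+ markers had no part in choosing these genes beyond the filter on low values and the shared estimate of the spread. They gave the same measure a second time, but both fractions may come from the same pooled mice. A repeat there is thus not known to rest on independent animals. Kit was at 45.6 to 80.1 FPKM and Thy1 at most 0.666 FPKM in these 12 libraries. Calls there were 58 of 22374 genes (0.259%) for the Zbtb16 null, 43 of them higher (0.192%) and 15 lower (0.067%), and 3608 of 21212 (17.0%) for the Sox3 cKO KIT+ less the THY1+-labelled WT, 2638 of them higher (12.4%) and 970 lower (4.57%). Of the 14 genes called lower in the cKO, all 14 were below 0 in these libraries and 12 were called lower, against 4.57% of all genes, the exceptions being Igfbp2 (-0.27, adjusted p = 0.043, under 1.5-fold) and Ly6g6e (-0.44, adjusted p = 0.18). Both counts include Sox3, the deleted gene, whose fall here was set by the design. AU015336 was called higher again.

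Neurog3 was lower in both mutants in these libraries too. It was at 3.89, 4.95 and 3.5 FPKM in the WT and 2.23, 1.61 and 1.43 FPKM in the null (log2 change -1.19, adjusted p = 0.039), and at 6.54, 4.68 and 5.57 FPKM in the THY1+-labelled WT and 0.184, 0.494 and 0.219 FPKM in the cKO (-3.90, adjusted p = 0.0014). Cthrc1, Zcchc12 and Hoxb13 fell without SOX3 there as well, by 1.88, 0.90 and 1.93 on the log2 scale (adjusted p = 0.0049, 0.0045 and 0.0018). Without ZBTB16 their values were 0.69, 0.31 and 0.44, and none was called (adjusted p = 0.20, 0.31 and 0.35). Of the 533 genes called higher and 273 called lower in the null, 435 (81.6%) and 162 (59.3%) kept their sign in the KIT+ libraries. Over all genes 51.4% were above 0 and 48.6% below 0 there. In the same direction 35 and 7 were called, against 0.192% and 0.067% of all genes. At an unadjusted p under 0.05 (limma), 64 of the 273 (23.4%) were lower there and 32 (11.7%) higher, where all genes gave 6.72% and 10.8%.

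**Figure D5:**
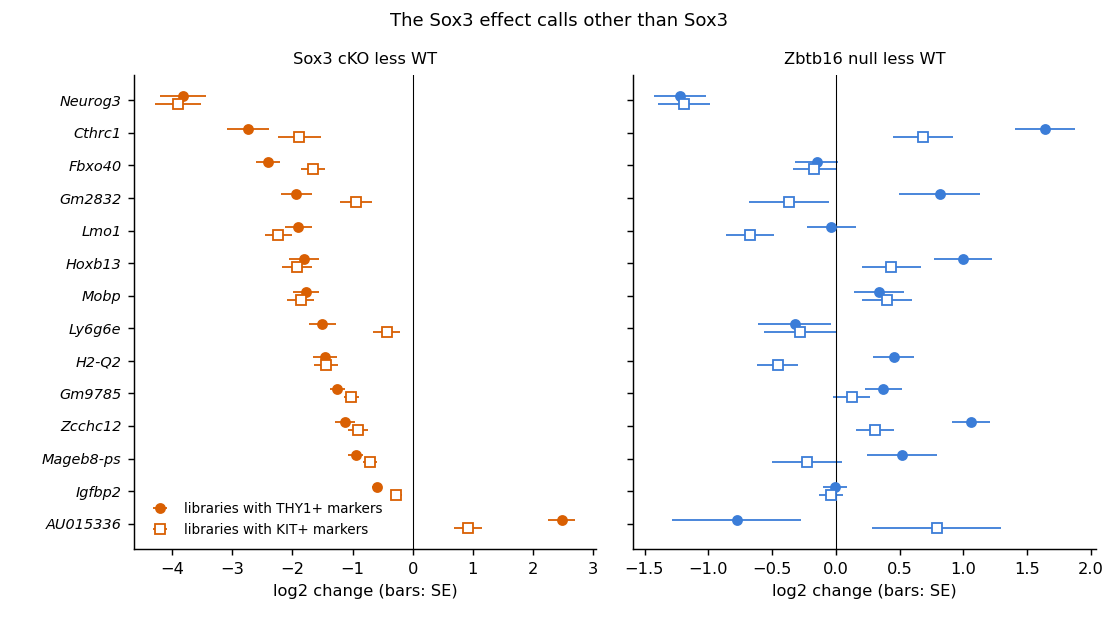
Log2 change ± SE of the 14 Sox3 effect calls other than Sox3, in the Sox3 cKO (left) and the Zbtb16 null (right), for the libraries with THY1+ markers (filled) and with KIT+ markers (open). In the cKO all 14 keep their sign between both kinds of library, and in the null Neurog3 is lower in both while Cthrc1, Zcchc12 and Hoxb13 are called in the THY1+ libraries alone.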

How the data were processed

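RNA of sorted spermatogonia was sequenced by the authors as stranded, rRNA-depleted single reads, aligned with Novoalign to mm10 and deposited as FPKM per gene (USeq), 1 table of 12 libraries for each mutant. The authors used DESeq2 on counts, which were not used here. From the deposited FPKM, limma 3.58.1 (R 4.3.3) was fitted to log2(FPKM + 0.1) for genes with a mean of at least 0.1 FPKM over their table, with 4 group means per table, moderated variances with trend and robust settings, and Benjamini-Hochberg adjustment. The difference between the effects came from 1 fit with 8 group means over both tables. The tables were normalized separately, so no level was tested across them. The fits were tested on simulated data. Fold changes on this scale understate those of low genes. Depth was inferred from low FPKM values, 79.8% to 85.1% of which were whole reads within 0.05.

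Same-numbered libraries deviated from their group means together (correlations 0.144, 0.427 and 0.595 in the Zbtb16 table and 0.302, 0.143 and 0.257 in the Sox3 table), so blocked values stand beside the counts. Nothing states how isolations were paired, and the p-values measure the spread between these libraries. The members and gene lists were chosen with earlier results of these data known. Named were Zbtb16, Sox3, Thy1 and Kit, genes the study names, up to 5 genes per class and direction at 1 FPKM or more without overlap (gene models, small RNAs and pseudogenes left out; for one factor, the other effect within 0.26), and up to 4 called members of each of 18 lists. Gene positions are from GENCODE M21.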

Additional observations from a re-analysis of the deposited data

How the results depend on the processing

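Counts are given in the order Zbtb16, Sox3, difference, same direction, opposite direction, Zbtb16-only and Sox3-only calls. Without a filter, with median-ratio scaling, and with the difference taken from the separate fits, every count stayed within 1.5 times. A pseudocount of 1 gave 565 Zbtb16 calls and kept the other counts within 1.5 times, but of the 15 Sox3 calls 11 were kept, with Hoxb13, Mobp, Gm2832 and Igfbp2 lost. With the replicate block they were 1980, 29, 3703, 1, 7, 1210 and 20, and all 15 Sox3 calls were kept. With only the 6 libraries of each contrast, Sox3 calls fell to 1 (Sox3), same-direction and opposite calls to 0 and Sox3-only calls to 1. Averaged over both fractions, the effects gave 514 Zbtb16 calls, 2188 Sox3 calls, 18 in the same and 28 in opposite directions, and 257 and 998 of one factor only. With the WT libraries as labelled THY1+, Sox3 calls were 6166, difference calls 7033, same-direction 158, opposite 199, Zbtb16-only 281 and Sox3-only 4751. With replicates 2 and 3 of the Sox3 table alone, they were 0, 697, 0, 0, 298 and 0. Leaving out 1 library gave 295 to 820 Zbtb16 calls, 5 to 9 Sox3 calls, 727 to 2483 difference calls, 1 same-direction call in every fit, 0 to 4 opposite calls, 190 to 552 Zbtb16-only and 4 to 11 Sox3-only calls. The cause of these shifts was not tested.

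With the WT libraries as labelled THY1+, the Sox3 effect changed sign for Cyp26b1 (-0.26), Foxf1 (1.204), Ly6g6e (0.71), Mageb7-ps (0.10), Rxrg (0.93), Six4 (0.98), Zbtb16 (1.30) and Zcchc12 (0.025). For Zbtb16 it also changed sign without cKO replicate 1 (0.025) and without WT labelled KIT+ replicate 3 (0.15). Of the 15 Sox3 calls, 13 were called again in the libraries with KIT+ markers, the deleted gene Sox3 among them, and 9 with a pseudocount of 1. That alternative was chosen after seeing the data. The shallow Sox3 libraries limit what low genes can show.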

Other observations

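In the libraries with KIT+ markers the effects of both mutations ran together rather than against each other: Pearson's r across the 21037 genes was 0.541 and Spearman's rho 0.547, where the libraries with THY1+ markers gave -0.349 and -0.441. The difference between these correlations was not tested, and genes are not independent replicates. At an unadjusted p under 0.05 in the Sox3 cKO, 1519 of 1816 lower genes (83.6%) had a value above 0 in the Zbtb16 null. Of the 963 higher genes, 847 (87.95%) had a value below 0 there. Over all genes 46.2% were above 0 and 53.8% below 0 in the null.

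The replicate block added 14 genes to the Sox3 calls, all lower in the cKO, and these were named after their values were seen. They include Six4, a homeobox gene at 5.03, 4.78 and 6.82 FPKM in the KIT+-labelled WT and 3.03, 1.6 and 2.68 FPKM in the cKO, which was called higher in the Zbtb16 null (log2 change 1.06 ± 0.19, adjusted p = 0.011, limma). They also include the X-linked Mageb7-ps and Mageb10-ps, so that with Mageb8-ps 3 Mageb pseudogenes were among the 29 blocked calls. Mageb7-ps was at 11.3, 10.2 and 12.5 FPKM in the Zbtb16 WT and 20.3, 20.5 and 21.4 FPKM in the null, and at 13.2, 12.6 and 11.4 FPKM against 7.52, 4.71 and 5.24 FPKM in the Sox3 set. The copies of this family are alike in sequence, and reads may be shared between them.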
